A study of Solanum commersonii and Solanum tuberosum with 8 samples.

Results

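The response of potato leaves to 24 h of cold was described from 1 of the 8 columns of log2 ratios in the series, that of wild-type Solanum tuberosum after 24 h at 2°C, over all 11366 array clones. S. tuberosum is the cultivated potato. Its plants were 3 weeks old and had been kept at 25°C under days of 16 h and nights of 8 h. Wild-type plants were moved to 2°C at 8 h after dawn, so that the 24 h harvest fell at the hour of day at which the cold had begun, and were set against wild-type plants left at 25°C for 24 h. The light intensity was 50 in the cold and 350 in the warm, in the unit of the labels, so cold and dimmer light cannot be told apart. The column combines 3 slides from 3 independent experiments into 1 value per clone. The columns used as context were wild-type S. tuberosum after 2 h and 7 d at 2°C, and wild-type S. commersonii, a freezing-tolerant wild potato, after 2 h, 24 h and 7 d at 2°C. The 2 h plants were set against wild type kept warm for 2 h and the 7 d plants against wild type kept warm for 24 h. The last 2 columns were S. commersonii and S. tuberosum carrying 35S::AtCBF3 in the warm, against warm wild type, from 3 and 2 independent lines. The genotype label of the S. tuberosum transgenic sample names Sc, against its title and organism, which were followed here. The 35S promoter is active in most plant tissues, so the transgene is not limited to leaves or to the cold.

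Plants that meet cold change the leaf transcriptome in waves. In Arabidopsis, CBF transcription factors, of which CBF3 is one, are induced early and bind a short DNA element in the promoters of many later cold-regulated genes, among them genes for protective proteins and for enzymes of sugar metabolism. Cultivated potato has CBF genes and responds to cold at the transcript level but gains little freezing tolerance from it, whereas S. commersonii acclimates.

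No gene names were matched to the clones here, so the column is described by sizes, ranks and groups of clones, and at most 2 clones in each direction are named. For the same reason the leaf label could not be set against marker genes. A log2 ratio of 1 is a 2-fold difference, and clones of at least 2-fold are called higher or lower in the cold. This direction is likely rather than settled: the labels place the cold RNA in the first channel and the design text compares cold with warm plants. With 1 combined value per clone there was no spread between replicates, no test between conditions was possible, and each count describes this column. Several clones can carry the same gene, so a count of clones is not a count of genes. In whole leaves, fewer cells of a type and less RNA per cell cannot be told apart.

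After 24 h of cold, 1354 clones were at least 2-fold higher (11.9% of all clones) and 163 were at least 2-fold lower (1.43%). Of all clones past the threshold 89.3% were higher (exact 95% interval 87.6 to 90.8%, for counting over clones only). If the ratios ran the other way, 10.7% would be higher, and all other directions would turn as well. With a median of 0.01, 5764 clones lay above 0 and 5602 below. The quartiles were uneven, with a 25th percentile of -0.21 and a 75th of 0.31. The asymmetry was larger in the tails, where the 99th percentile was 3.10 and the 1st was -1.12.

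The higher side carried a long, flat shoulder. Between log2 ratios of 1 and 2.5 each step of 0.25 held between 142 and 199 clones, and the step from 3 to 3.25 still held 90. The number then dropped to 44 in the next step and to 11 in the one after. By size, 451 clones were 2-fold to 3-fold higher, 246 were 3-fold to 4-fold, 508 were 4-fold to 8-fold, 146 were 8-fold to 16-fold and 3 were more than 16-fold higher. No such shoulder was present on the lower side, where 136 of the 163 clones were 2-fold to 3-fold lower, 22 were 3-fold to 4-fold and 5 were 4-fold to 8-fold lower. Close to the threshold, 81 clones lay between 1.0 and 1.1 and 106 between 0.9 and 1.0, and on the lower side 47 lay between -1.1 and -1.0 and 68 between -1.0 and -0.9.

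**Figure D1:**
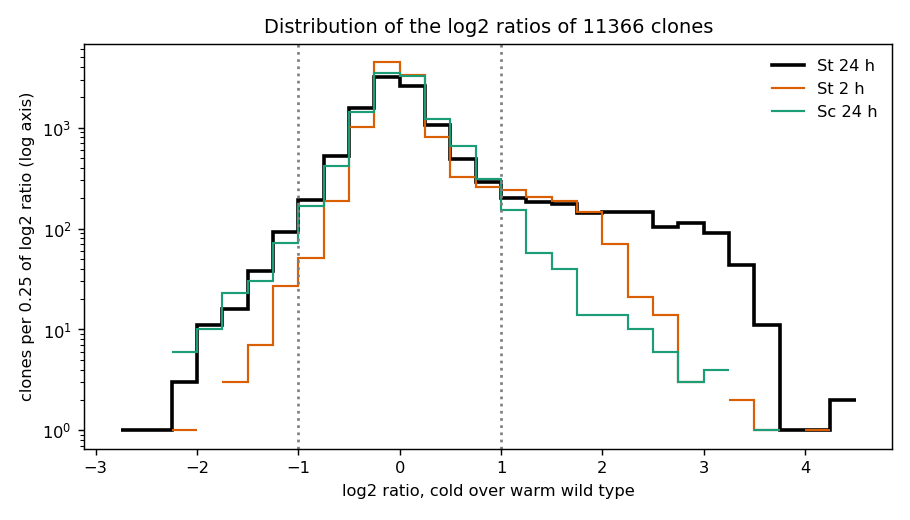
Number of clones (log axis) in each step of 0.25 of the log2 ratio, cold over warm wild type, for S. tuberosum (St) after 24 h and 2 h and S. commersonii (Sc) after 24 h. Dotted lines mark 2-fold. The St 24 h line stays between 142 and 199 clones per step from 1 to 2.5, while the Sc 24 h line is at 10 in the step from 2.25 to 2.5.

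The highest clone, STMHH62, had a log2 ratio of 4.46 at 24 h in S. tuberosum (22.0-fold). In S. tuberosum its ratio was 3.74 at 2 h and 0.49 at 7 d. For the same clone S. commersonii gave 4.93 at 2 h, 2.77 at 24 h and 1.54 at 7 d. The transgenic plants gave 2.05 in S. commersonii against 0.38 in the cultivated species. STMHH62 was thus high at 2 h and 24 h in both species and ranked 1626th at 7 d in S. tuberosum.

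The next clone, STMHO39, stood at 4.30 at 24 h in S. tuberosum (19.6-fold) but at 0.41 at 2 h and 2.84 at 7 d. STMHO39 in S. commersonii was at 1.90 at 2 h, 3.50 at 24 h and 1.74 at 7 d. Its 24 h ratio was the highest of all clones in S. commersonii. With 35S::AtCBF3 it was close to the control in S. commersonii (-0.07) and lower in S. tuberosum (-1.74), so that it was high in the cold and not in the transgenic plants.

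The lowest clone, STMCP38, had a log2 ratio of -2.56 at 24 h in S. tuberosum, 5.91-fold lower than in the warm. It stood at 0.31 at 2 h and -1.67 at 7 d in S. tuberosum, while S. commersonii gave -0.05 after 2 h, -1.18 after 24 h and -0.90 after 7 d. The second lowest, STMEH84, was low at each harvest of S. tuberosum, with -1.08 at 2 h, -2.45 at 24 h and -2.44 at 7 d. STMEH84 had -0.03, -0.12 and -0.12 at these harvests of S. commersonii, so its low values were found in 1 species. With 35S::AtCBF3, STMEH84 was at -1.65 in S. tuberosum and 0.06 in S. commersonii, and STMCP38 at -0.50 and 0.88.

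**Figure D2:**
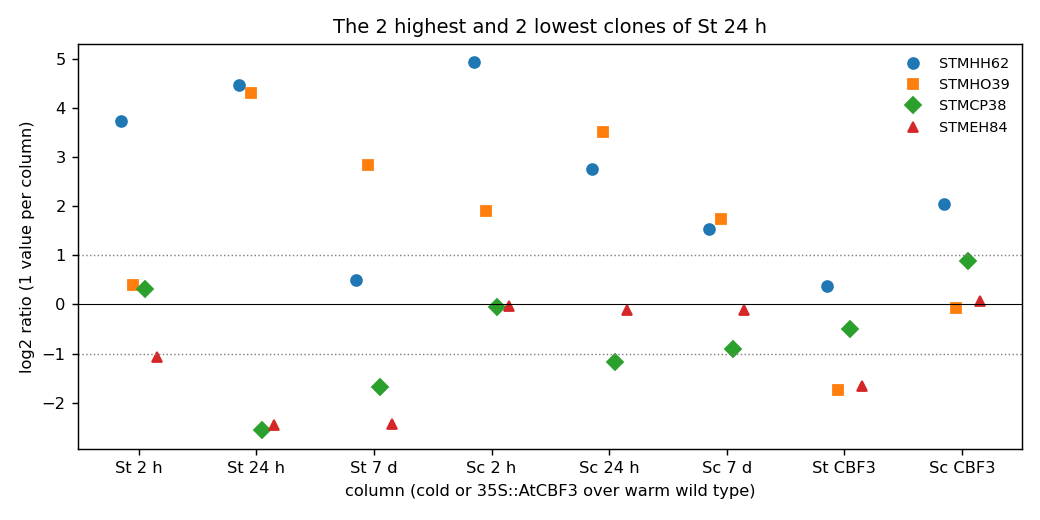
Log2 ratios of the 2 highest and the 2 lowest clones of S. tuberosum at 24 h of cold in all 8 columns, 1 point per clone and column. Columns are S. tuberosum (St) and S. commersonii (Sc) at 2 h, 24 h and 7 d of cold and with 35S::AtCBF3 (CBF3), and dotted lines mark 2-fold. STMHO39 goes from 0.41 at 2 h to 4.30 at 24 h in St, and STMEH84 is below -1 in each St column and near 0 in each Sc column.

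The first comparison was with the earlier harvest of the same species, whose warm control was a separate one. Of the 1354 clones higher at 24 h, 774 were also at least 2-fold higher at 2 h (57.2%), against 7.87% of all clones. The exact 95% interval of 54.5 to 59.8% is again for counting over clones only. The 774 made up 86.5% of the clones higher at 2 h. The other 580 had a median of 0.46 at 2 h and 1.41 at 24 h. On the lower side the 2 h column had 38 lower clones (0.334% of all). Of these, 15 were lower at 24 h (39.5%), against 1.43% of all clones. The 15 were 9.2% of the clones lower at 24 h. The 163 clones lower at 24 h had a median of -0.09 at 2 h and -1.22 at 24 h, so low ratios at 24 h came with 2 h ratios on both sides of 0.

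Read from 2 h forwards, the 24 h ratio went up with the 2 h ratio over most of the range. Clones with a 2 h log2 ratio of 0.5 to 1 had a median of 0.93 at 24 h (583 clones), those at 1 to 1.5 of 1.97 (447 clones), those at 1.5 to 2 of 2.69 (335 clones) and those at 2 to 2.5 of 3.19 (92 clones). The 21 clones at 2.5 or more at 2 h did not follow this order and had a 24 h median of 1.36, with values from -0.10 to 4.46. In these 21 clones 16 were at least 2-fold higher with 35S::AtCBF3 in S. commersonii, against 5.81% of all clones, and their median there was 1.94. The 92 clones just below them had a median of 0.57 with 35S::AtCBF3 in S. commersonii, and 16 of the 92 were 2-fold higher. Whether this difference between the 2 sets exceeds the spread between plants could not be tested.

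Between the times, 688 clones had a 24 h ratio at least 2-fold above the 2 h ratio (6.05% of all clones) and 245 at least 2-fold below it (2.16%). The order depended on scale: with each column scaled to the same central spread the counts were 440 and 422, so that higher clones made up 51% in place of 73.7%. Of the 895 clones higher at 2 h, 121 were no longer higher at 24 h, with a median of 1.34 at 2 h and 0.35 at 24 h. Of these 121 clones 42 were higher with 35S::AtCBF3 in S. commersonii, against 5.81% of all clones.

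**Figure D3:**
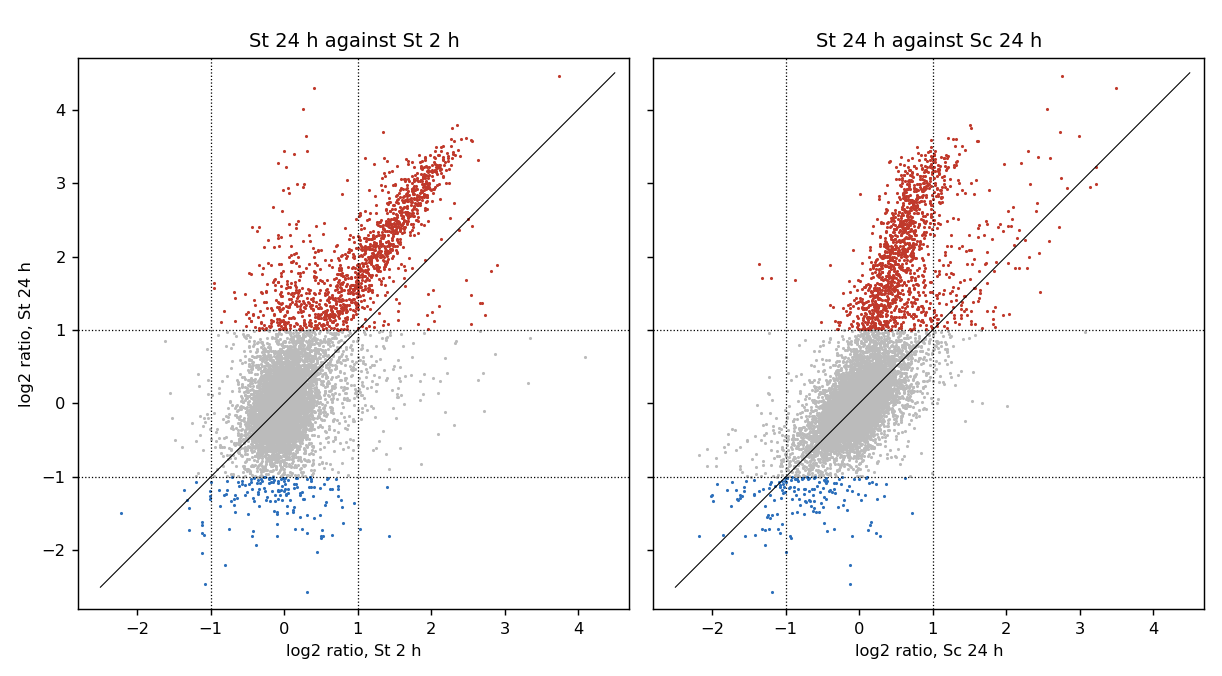
Log2 ratio of each clone at 24 h of cold in S. tuberosum (St, y axis) against St at 2 h (left) and S. commersonii (Sc) at 24 h (right). Red and blue points are at least 2-fold higher and lower at St 24 h, dotted lines mark 2-fold and the solid line equal ratios. On the left a dense band lies above the line of equal ratios and a second, looser set stands near 0 at 2 h, and on the right most red points lie above the line of equal ratios.

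The second comparison was with S. commersonii at the same time, again with a separate control. Of the 1354 higher clones 240 were also 2-fold higher in S. commersonii at 24 h (17.7%), against 2.65% of all clones. The exact 95% interval of 15.7 to 19.9% is for counting over clones only. Those 240 were 79.7% of the clones higher in S. commersonii. The number was 413 with each column scaled to the same central spread. Of the 163 lower clones 59 were 2-fold lower in S. commersonii (36.2%), against 1.24% of all clones. The interval around 36.2%, 28.8 to 44.1%, has the same limit. The 59 were 41.8% of the S. commersonii list.

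The sizes were further apart on the higher side than on the lower side. The higher clones had a median of 1.97 in S. tuberosum and 0.61 in S. commersonii at 24 h, a ratio of the medians of 0.309, and the cultivated species exceeded the wild one at least 2-fold in 980 of them. The lower clones had medians of -1.22 and -0.78, a ratio of 0.643, and 33 of them were at least 2-fold lower in S. tuberosum. The clones were chosen on their S. tuberosum values, which favours larger sizes in that column on both sides. Taken over all clones, the cultivated species exceeded the wild one at least 2-fold in 1039 (9.14%) and fell short of it by that much in 64 (0.563%, or 113 clones with scaled columns). The 64 had medians of -1.01 in S. tuberosum and 0.24 in S. commersonii. With 35S::AtCBF3 in S. commersonii, 29 of the 64 were 2-fold higher (5.81% of all clones) and none was 2-fold lower (3.11% of all), and their median was 0.87. These clones were chosen in part for high 24 h ratios in S. commersonii, and whether its transgenic and 24 h columns share warm wild-type RNA is not stated.

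In the columns as deposited, the higher clones were closer in size to those of the first harvest of S. commersonii. This closeness depends on scale, since the central spread was 0.22 in that column and 0.37 in S. tuberosum at 24 h. The 1354 clones had a median of 1.94 at 2 h in S. commersonii, close to their 1.97 in S. tuberosum at 24 h, and 1039 of them (76.7%) were 2-fold higher there, against 10.9% of all clones. The 163 lower clones had no such counterpart, with a median of -0.03 and 3 lower clones (0.15% of all clones were lower) at 2 h in S. commersonii. Their median was -1.18 after 7 d in S. commersonii, where 96 of the 163 (58.9%) were 2-fold lower, against 5.42% of all clones.

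The higher clones were divided by the columns of separate control in which they were also 2-fold higher: S. tuberosum at 2 h, S. commersonii at 2 h and S. commersonii at 24 h. The largest group, 646 clones, was higher at 2 h in both species and not at 24 h in S. commersonii. Its medians were 1.48 at 2 h and 2.38 at 24 h in S. tuberosum, and 2.35 and 0.61 in S. commersonii. A further 106 clones were higher in all 3 columns, with a median of 3.02 at 24 h in S. tuberosum and 1.16 in S. commersonii. A group of 273 clones was higher at 2 h only in S. commersonii. It stood at 1.59 there and at 0.75 at 2 h and 1.41 at 24 h in S. tuberosum. The median of the 273 clones at 24 h in S. commersonii was 0.34. In the groups of 646 and 273 every clone is lower at 24 h in S. commersonii than in S. tuberosum by the way the groups were formed.

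A different 106 clones were higher at 24 h in both species and in neither 2 h column. Their medians at 24 h were 1.77 in S. tuberosum and 1.45 in S. commersonii, both columns being past 2-fold by the choice of the group. Their medians at 2 h were 0.07 and 0.24. At 7 d their medians were 1.08 in S. tuberosum and 0.89 in S. commersonii. In each species the 7 d column shares its warm control with the 24 h column, on which the group was chosen. With 35S::AtCBF3 in S. commersonii 38 of the 106 were 2-fold higher, against 5.81% of all clones, and 8 were 2-fold lower, against 3.11%. This group too was chosen in part on S. commersonii at 24 h. In the group of 646, the corresponding numbers were 23 and 2.

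The remaining large group, 187 of the 1354 clones, was 2-fold higher in none of the 3 columns. Few of all clones were higher there: 7.87% at 2 h in S. tuberosum, and 10.9% at 2 h and 2.65% at 24 h in S. commersonii. How many of all clones were higher in none of the 3 was not counted. The 187 therefore do not show a group particular to this column. The 24 h median of the 187 in S. tuberosum was 1.28, the lowest of these groups, with a lower quartile of 1.11. Its median was 0.44 at 24 h in S. commersonii, so that many members lay on the same side of 0 below the threshold. Of the 187 clones, 79 were also within 1.5-fold of the control in each of the 3 columns. The last 36 higher clones fell into 3 groups of 14, 14 and 8 with other combinations.

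The lower clones had 2 main groups. In 94 clones no other of the 3 columns was 2-fold lower, and in 53 S. commersonii at 24 h was lower as well. Of all clones, 0.334% were lower at 2 h in S. tuberosum. In S. commersonii 0.15% of all clones were lower at 2 h and 1.24% at 24 h. How many of all clones were lower in none of the 3 was not counted. The 94 therefore do not show a group particular to this column. The 53 clones had medians of -1.24 in S. tuberosum and -1.25 in S. commersonii at 24 h. The 94 clones had -1.17 and -0.54. After 7 d in S. commersonii the medians of these groups were -1.56 and -1.12, and after 7 d in S. tuberosum, with the shared warm control, -1.47 and -1.62. At 2 h in S. tuberosum both stood near 0, at -0.18 and -0.03.

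**Figure D4:**
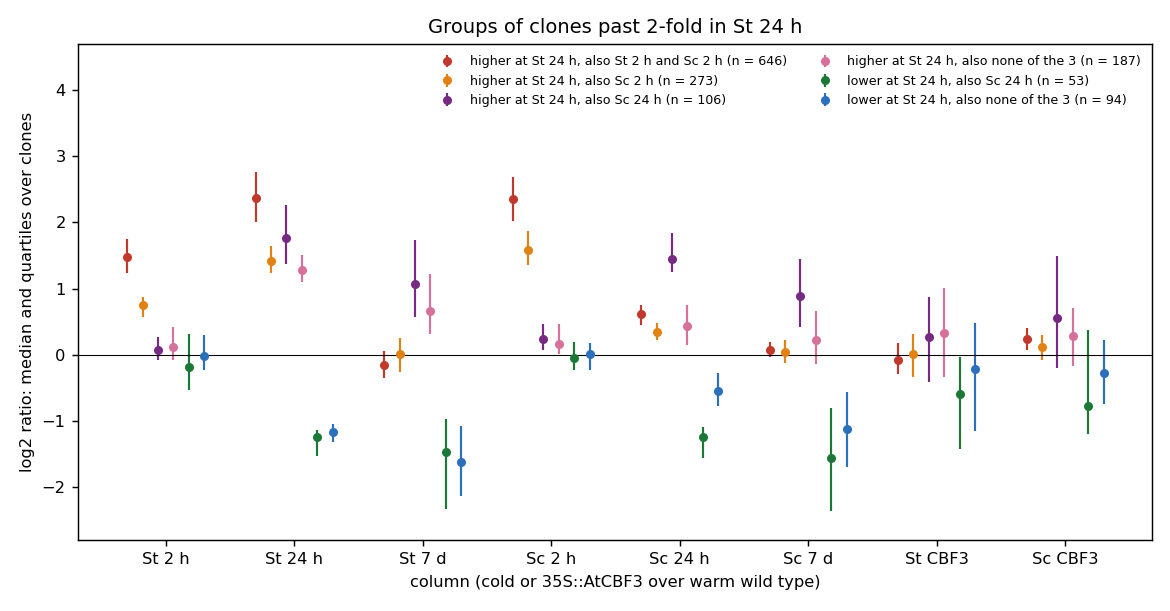
Median log2 ratio (points) with quartiles over clones (bars) in all 8 columns for 6 of the groups of changed clones, divided by the columns in which they were also at least 2-fold changed the same way. St is S. tuberosum, Sc is S. commersonii and CBF3 is 35S::AtCBF3 in the warm. The group shared with Sc at 24 h (purple) has a median of 0.07 at St 2 h and 1.77 at St 24 h, and the group of 646 (red) has 1.48 and 2.38.

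At the top of the ranking, most clones belonged to the set already high at 2 h. Of the 100 highest clones at 24 h, 92 were 2-fold higher at 2 h in S. tuberosum (7.87% of all clones) and 92 at 2 h in S. commersonii (10.9% of all). The other 8 were all within 1.5-fold of the control at 2 h in S. tuberosum, with 2 h ratios from -0.08 to 0.41 and 24 h ratios from 3.22 to 4.30. All 8 were 2-fold higher at 24 h in S. commersonii (2.65% of all clones), with a median of 2.43, against a median of 1.02 for the 100. With 35S::AtCBF3 in S. commersonii the 8 had values on both sides of 0. There 3 were 2-fold higher (5.81% of all clones) and 2 were 2-fold lower (3.11%). The 2 lower ones, at -2.86 and -2.79, differed by at most 0.26 in each of the 8 columns and may carry the same gene. Among the 25 highest clones, 54 of the 300 pairs differed by less than 0.5 in every one of the 8 columns, and among the 25 lowest 5 of 300 pairs did. Both sets were chosen on the 24 h column, which favours closeness there. How often pairs of all clones lie this close was not counted, so these counts do not show clones of the same gene.

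The clones changed at 24 h stood in different places with 35S::AtCBF3 in S. commersonii, which shares no control with the column. Of the 1354 higher clones, 127 were 2-fold higher there (9.38%, against 5.81% of all clones) and 37 were 2-fold lower (2.73%, against 3.11%). Of the 163 lower clones, 32 were 2-fold lower (19.6%, against 3.11%) and 24 were 2-fold higher (14.7%, against 5.81%). The lower clones were thus past 2-fold in either direction more often than all clones in that column.

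The 24 clones low in the cold and high with the transgene had a median of -1.47 at 24 h in S. tuberosum, the lowest at -2.03, and a median of 3.36 (10.2-fold) with 35S::AtCBF3 in S. commersonii, the highest at 5.47. With 35S::AtCBF3 in S. tuberosum their median was 1.72. Whether that column shares its wild-type RNA with the cold column is not stated. In the cold the wild species had medians of -0.09 at 2 h, -0.17 at 24 h and -1.30 at 7 d for these 24 clones. The 32 clones low in both had medians of -1.19 at 24 h in S. tuberosum and -1.05 at 24 h in S. commersonii. With 35S::AtCBF3 in S. commersonii their median was -1.38. The 24 and the 32 are past 2-fold in that transgenic column by choice. Whether it shares warm wild-type RNA with S. commersonii at 24 h is not stated. At 24 h in S. commersonii 6 of the 24 (25%) and 17 of the 32 (53.1%) were 2-fold lower. The share was 36.2% for the 163 lower clones and 1.24% for all clones. The lower quartile of the 24 was -0.95. Some of the 24 were alike in all 8 columns and may carry the same gene. A pair at 5.47 and 5.42 with 35S::AtCBF3 in S. commersonii differed by at most 0.18 in each column. Another pair, at 4.05 and 4.10 there, differed by at most 0.32.

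The 127 clones high in both the cold and the transgenic S. commersonii had a median of 1.58 at 24 h in S. tuberosum and 1.02 in S. commersonii. At 2 h in S. tuberosum their median was 0.55, and 47 of them (37%) were 2-fold higher, against 57.2% of the 1354 clones and 7.87% of all clones. The 1190 higher clones that were within 2-fold with 35S::AtCBF3 had medians of 2.01 at 24 h and 1.16 at 2 h in S. tuberosum, and 0.58 at 24 h in S. commersonii. The 37 clones high in the cold and low with the transgene had a median of 1.69 at 24 h in S. tuberosum and -1.65 with 35S::AtCBF3. All of these sets were formed on 35S::AtCBF3 in S. commersonii. Whether that column shares warm wild-type RNA with S. commersonii at 24 h is not stated.

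Changed clones were also followed over the clone collection, in which all names start with the same 3 letters. Higher clones occurred in all 157 blocks of clones that share their first 5 letters, and lower clones in 84. The share of higher clones per block ran from 1.14 to 26.9%, with quartiles of 8.06 and 15.3%, in blocks of 36 to 92 clones. Grouped by the first 4 letters, the share of higher clones lay between 9.49 and 16.7%. Lower clones were spread less evenly: the 1538 clones starting with STMC held 48 of the 163 lower clones (29.4%) and 13.5% of all clones. In STMC 3.12% of clones were lower at 24 h, against 0.581 to 1.51% in the other groups. The median over all STMC clones at 24 h was -0.11, against -0.01 to 0.09 in the other groups. STMC clones in S. commersonii were also lower more often, at 24 h in 2.93% (1.24% of all clones) and after 7 d in 14.2% (5.42% of all). What the letters stand for is not given in the sources used here, and the grouping by 4 letters was chosen after the values had been seen.

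**Figure D5:**
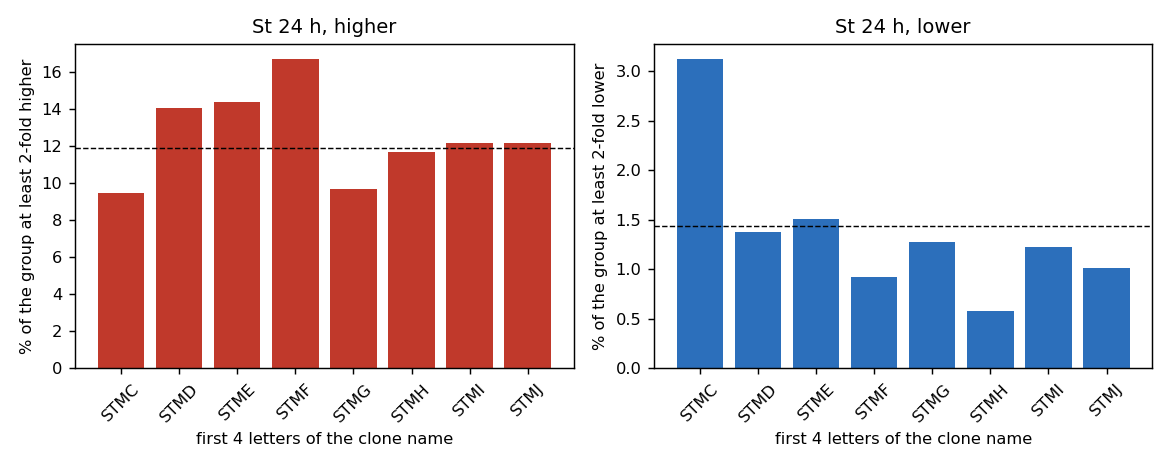
Share of clones at least 2-fold higher (left, %) and lower (right, %) at 24 h of cold in S. tuberosum (St), by the first 4 letters of the clone name. Dashed lines mark the shares over all clones, 11.9 and 1.43%. The STMC bar stands at 3.12% among the lower clones and at 9.49% among the higher.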

How the data were processed

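Leaf RNA of cold or transgenic plants and of warm wild-type plants was compared on 2-colour arrays. The authors deposited 1 log2 ratio per clone and column, a combination of 3 slides, or of 2 for transgenic S. tuberosum according to the labels. The submitters' processing notes name limma, without a version. Background correction, normalization, spot filters, the base of the logarithm and the direction of the ratio are not stated. The base was taken as 2, the one limma uses, and the median of 0.01 shows a column centred near 0. Both dyes are listed for either channel, and an odd number of slides leaves them unbalanced. Intensities and single slides were not analysed here, so dim clones are included and precision rests on the number of slides.

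All 11366 clones of the column were used as deposited, without a filter and with no missing value. A fold threshold of 2 was applied with Python 3.11.15, numpy 2.4.6, pandas 2.3.3 and scipy 1.17.1, and the counting was tested on simulated data. Central spread is the SD from the median absolute deviation. Counts shared with other columns were made only with columns of separate control; the S. tuberosum 7 d column, of the same 24 h warm control, is given by its values beside the others, with no shared counts, and was left out of the counts of clones changed in no other cold column. The 2 highest and 2 lowest clones at 24 h are named. No gene list could be matched to clones. The groups, thresholds and rules were chosen with earlier results of these data known. Alternatives were 1.5-fold and 3-fold thresholds, median-centred columns, columns scaled to one central spread, and the spread from the interquartile range.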

Additional observations from a re-analysis of the deposited data

Results flagged for a closer look

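After 24 h of cold 3 clones went opposite ways in the species, at least 2-fold higher in S. tuberosum and at least 2-fold lower in S. commersonii, and none was the reverse. In S. tuberosum the 3 clones were at 0.86 to 1.18 at 2 h, 1.71 to 1.90 at 24 h and -1.01 to -0.82 at 7 d. In S. commersonii they were at 1.39 to 1.46 at 2 h, -1.37 to -1.20 at 24 h and -1.92 to -1.27 at 7 d. In each species the 7 d column shares its warm control with the 24 h column. The 3 made up 0.222% of the 1354 higher clones, against 1.24% of all clones lower in S. commersonii at 24 h. For the reverse, the share was 0 of the 163 lower clones, against 2.65% of all clones higher there. Values of the 3 lay close together in most columns, so some of them may carry the same gene. The opposite directions at 24 h drew attention to these clones, and the difference was not tested, since each species has 1 value per clone.

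Another 3 clones were at least 2-fold higher at 2 h and at least 2-fold lower at 24 h in S. tuberosum. They were 1.84% of the 163 clones lower at 24 h, against 7.87% of all clones higher at 2 h. None of the 1354 clones higher at 24 h was 2-fold lower at 2 h, against 0.334% of all clones. The ratios of the 3 clones were 1.04 to 1.42 at 2 h, -1.80 to -1.14 at 24 h and -2.81 to -2.39 at 7 d. The 7 d column shares its warm control with the 24 h column. In S. commersonii the 3 clones were at 0.64 to 0.89 at 2 h and -2.18 to -1.22 at 24 h. They were picked out because the times point in opposite directions, and this difference was not tested.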

How the results depend on the processing

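No paired analysis was possible because each column holds 1 combined value per clone, and for the same reason no slide could be left out. Averaging clones of 1 gene and the gene lists were not run, since no clone was matched to a gene. Centring each column on its median changed no count by more than 1.5 times. At 1.5-fold, 660 clones were lower at 24 h and 74.7% of those past the threshold were higher, and at 3-fold 27 were lower and the share was 97.1%. Higher clones numbered 1947 at 1.5-fold and 903 at 3-fold. Of these, 856 and 56 were shared with S. commersonii at 24 h. At 2-fold 240 of 1354 were shared, or 413 with scaled columns, so the shared part was smaller at higher thresholds. Of the 660 and 27 lower clones 294 and 3 were shared. How many of all clones passed 1.5-fold or 3-fold in S. commersonii was not counted. At 3-fold 324 of the 903 higher clones were also higher at 2 h in S. tuberosum, beside 774 of 1354 at 2-fold. Clones higher in no other cold column with a separate control numbered 164 at 2-fold, 249 at 1.5-fold, 102 at 3-fold and 100 with scaling. Lower ones numbered 42, 209 and 9 at the thresholds. How many of all clones were changed in none of those other columns was not counted. The 24 h ratio was above the 2 h ratio by the threshold in 1619 clones at 1.5-fold and 122 at 3-fold, below it in 705 and 67, and scaling gave 440 and 422. S. tuberosum was above S. commersonii at 24 h in 1613 and 542 clones at these thresholds and below it in 336 and 17, or in 113 with scaling. Counts past a threshold, and shared counts, fall with a higher threshold by construction. The shared part and the counts in no other column are not fixed in this way. The cause of the shifts with scaling was not tested. The central spread was 0.37 by the median absolute deviation and 0.39 by the interquartile range.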
